A study of Rattus norvegicus with 8 samples.

Results

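The 50 genes described here encode Rab small GTPases measured by RNA-seq in the medial prefrontal cortex of rats. They were chosen by name, as rows called Rab followed by a number and at most a letter and a digit, with a mean expected count of at least 10 over 8 libraries. Of 17168 genes in each table, 55 had such a name and 50 reached that mean. All 50 also passed the low-count filter that left 11631 genes for testing. The 5 that did not reach it were Rab17 with a mean expected count of 0, Rab19 with 0.125, Rab25 with 0.25, Rab38 with 4.38 and Rab20 with 5.88. The members just above the limit were Rab32 with a mean of 14.8, Rab43 with 19 and Rab13 with 51.4.

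The libraries came from tissue homogenate of male Sprague-Dawley rats. Of the 8, 4 were from rats of high motor impulsivity (HI) and 4 from rats of low motor impulsivity (LI), and the comparison asks which transcripts differ between them. Motor impulsivity was read from premature responses in a serial reaction time task with 1 choice, and HI and LI rats were the top and bottom quartile of that measure. The labels give no age, drug treatment, batch or date. They do not say that each library is a separate animal, so the p-values measure the spread between libraries, which may be partly technical. In homogenate, fewer cells of a type and less RNA per cell cannot be told apart.

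Rab proteins are membrane switches that recruit motors, tethers and fusion factors to vesicles while bound to GTP. Exchange factors load them with GTP, GTPase-activating proteins switch them off, and escort and extraction proteins handle their lipid anchors. In neurons Rab3 proteins sit on synaptic vesicles, Rab5, Rab4, Rab11 and Rab7 mark successive endosomal compartments, and Rab1, Rab2, Rab6, Rab8 and Rab10 act on the secretory route. By these roles the members were 4 Rab3 genes, 20 endosomal genes, 20 secretory genes and 6 others.

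Total counts of the libraries ranged from 7354416 to 9476656. Ribosomal RNA took 0.406% of the counts in HI replicate 4 (HI4) and 0.418% in LI replicate 3 (LI3), against 1.37% to 25.5% in the other 6 libraries. Summed neuronal markers, 8 of 8 detected in every library, reached 12197 CPM (counts scaled to a fixed library size) in HI4 and 10415 CPM in LI3 and lay between 6488 and 8791 CPM elsewhere. The 5 microglial markers summed to 173 to 190.5 CPM in HI and 199.5 to 215 CPM in LI, without overlap. By itself 1 of these 5 genes separated the groups, beside 3.46% of all tested genes. None of the 5 had an adjusted p under 0.1 in the main test described below. The 5 oligodendrocyte markers summed to 1847 to 1946 CPM in HI and 1599 to 6062 CPM in LI, and the 5 striatal markers to 255 to 304 CPM and 256 to 667 CPM, with LI replicate 2 highest in both lists. The 5 meningeal markers summed to 33.5 to 431 CPM in HI, with replicate 1 highest, and 14.7 to 79.6 CPM in LI. The 5 astrocyte markers summed to 1840.3 to 2506 CPM in HI and 1907 to 2434 CPM in LI, and the 4 endothelial markers found to 71.9 to 113 CPM and 72.7 to 101 CPM. No marker found in the tables was at 0 in any library. The part of these differences in the results below was not tested, apart from the fits that use ribosomal RNA and those that leave libraries out.

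Rab3a, the main synaptic vesicle Rab of brain, had the highest level of the family. To compare genes, levels are given as CPM per kilobase of effective transcript length. On that scale the mean over 8 libraries was 799.5 for Rab3a, 326 for the neuron-enriched Golgi gene Rab6b and 260.3 for its widely expressed relative Rab6a. Rab11b, a recycling endosome gene, had 202, Rab7a, the late endosome gene, 200, and Rab2a, which acts between endoplasmic reticulum and Golgi, 197. Rab32, a gene of lysosome-related organelles, was lowest at 0.859. The 3 leading genes together made up 33.1% to 40.6% of the summed Rab level of a library. By class, the Rab3 genes held 21.6% to 26.6% of that sum in HI and 21.8% to 27.2% in LI. Endosomal genes held 33.2% to 36.4% in HI and 33.7% to 36.3% in LI, and secretory genes 35.9% to 38% in HI and 34.4% to 37.3% in LI. The ranges of the groups overlapped for every class.

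**Figure D1:**
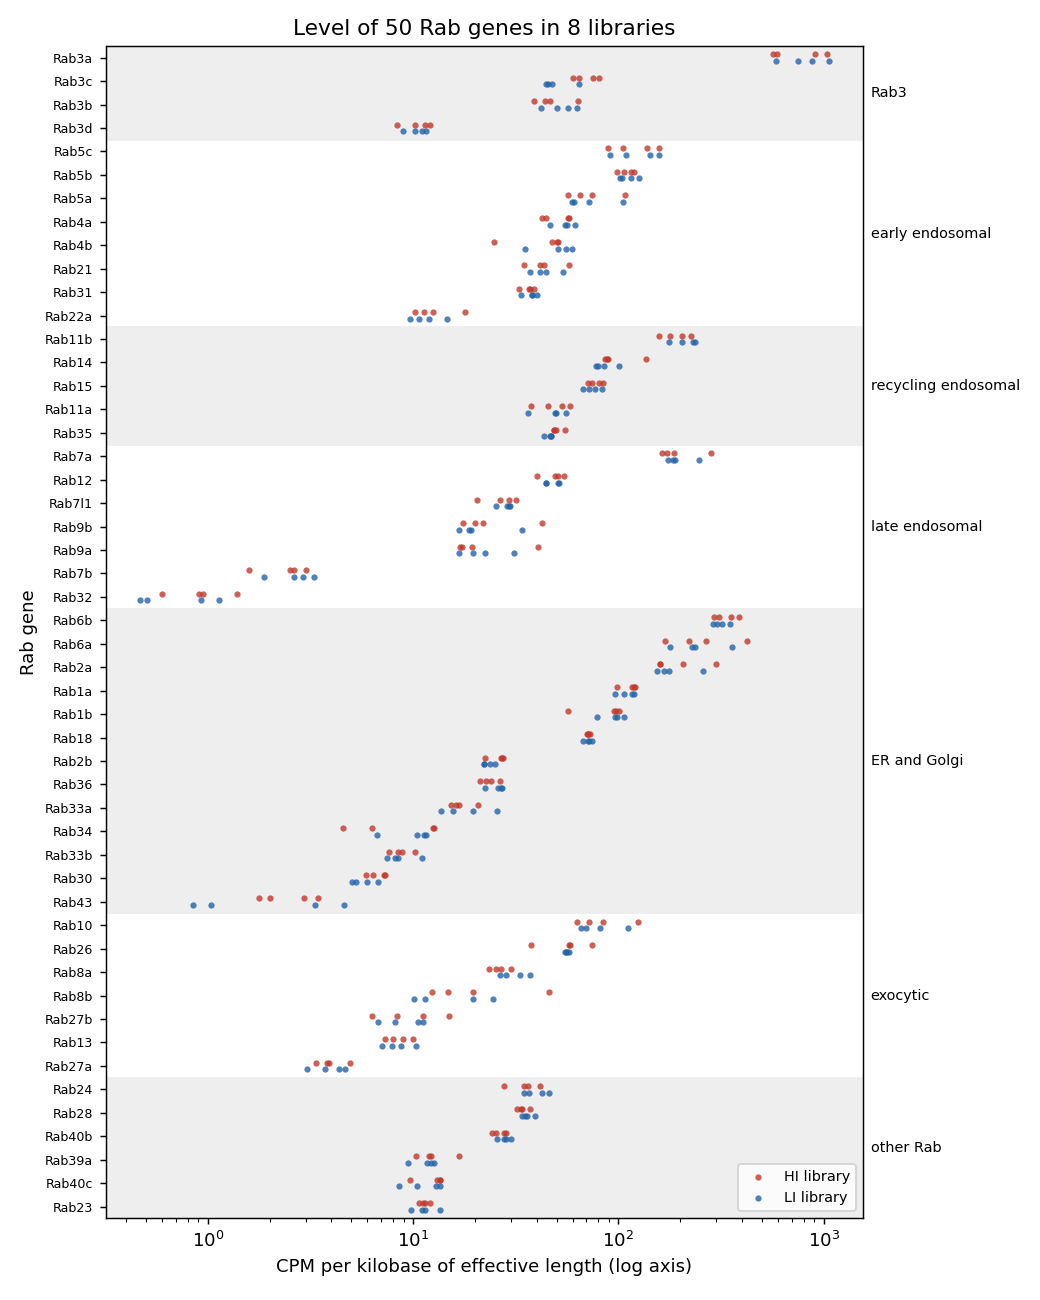
Level of each of the 50 Rab genes in each library, as CPM per kilobase of effective length on a log axis, with HI libraries in red and LI libraries in blue and genes ordered by class. Rab3a stands highest with a mean of 799.5 and Rab32 lowest with 0.859, and the HI and LI points overlap for every gene except Rab35.

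No Rab gene passed the test between HI and LI. In edgeR's quasi-likelihood test with Benjamini-Hochberg adjustment over all 11631 genes, 0 of 50 members had an adjusted p under 0.1, where 0% of all tested genes did. The adjusted p was 1 for each member. Only Rab3c, 1 member of 50, was under an unadjusted p of 0.05, beside 4.16% of all tested genes. The groups were separate in 1 member, Rab35, beside 3.46% of all tested genes, and with all HI libraries above all LI libraries beside 2.31%. DESeq2 called 30 of 7509 genes with an adjusted p, which is 0.4%, and 0 of the 39 Rab genes among them. None of these shares of Rab genes exceeds the share over all genes.

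The fold changes of the family were small. Log2 fold changes, HI minus LI throughout, had a median of 0.02 over the 50 members and -0.01 over all tested genes. They ran from -0.24 for Rab8a to 0.49 for Rab8b. The median size without sign was 0.1 for members and 0.12 for all tested genes, and the median standard error (SE) was 0.18 and 0.19. Of the members, 31 had a positive and 19 a negative value, a positive share of 62% beside 48.5% over all tested genes. That lean changed with the library left out: 21 members were positive without LI2, 23 without HI4 and 24 without LI1. Leaving out any other library left 28 to 31 positive. When each library was left out in turn, 30 of the 50 members took both signs. The class medians were -0.03 for Rab3, 0.02 for endosomal, 0.03 for secretory and -0.05 for the other genes, and the difference between classes was not tested.

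**Figure D2:**
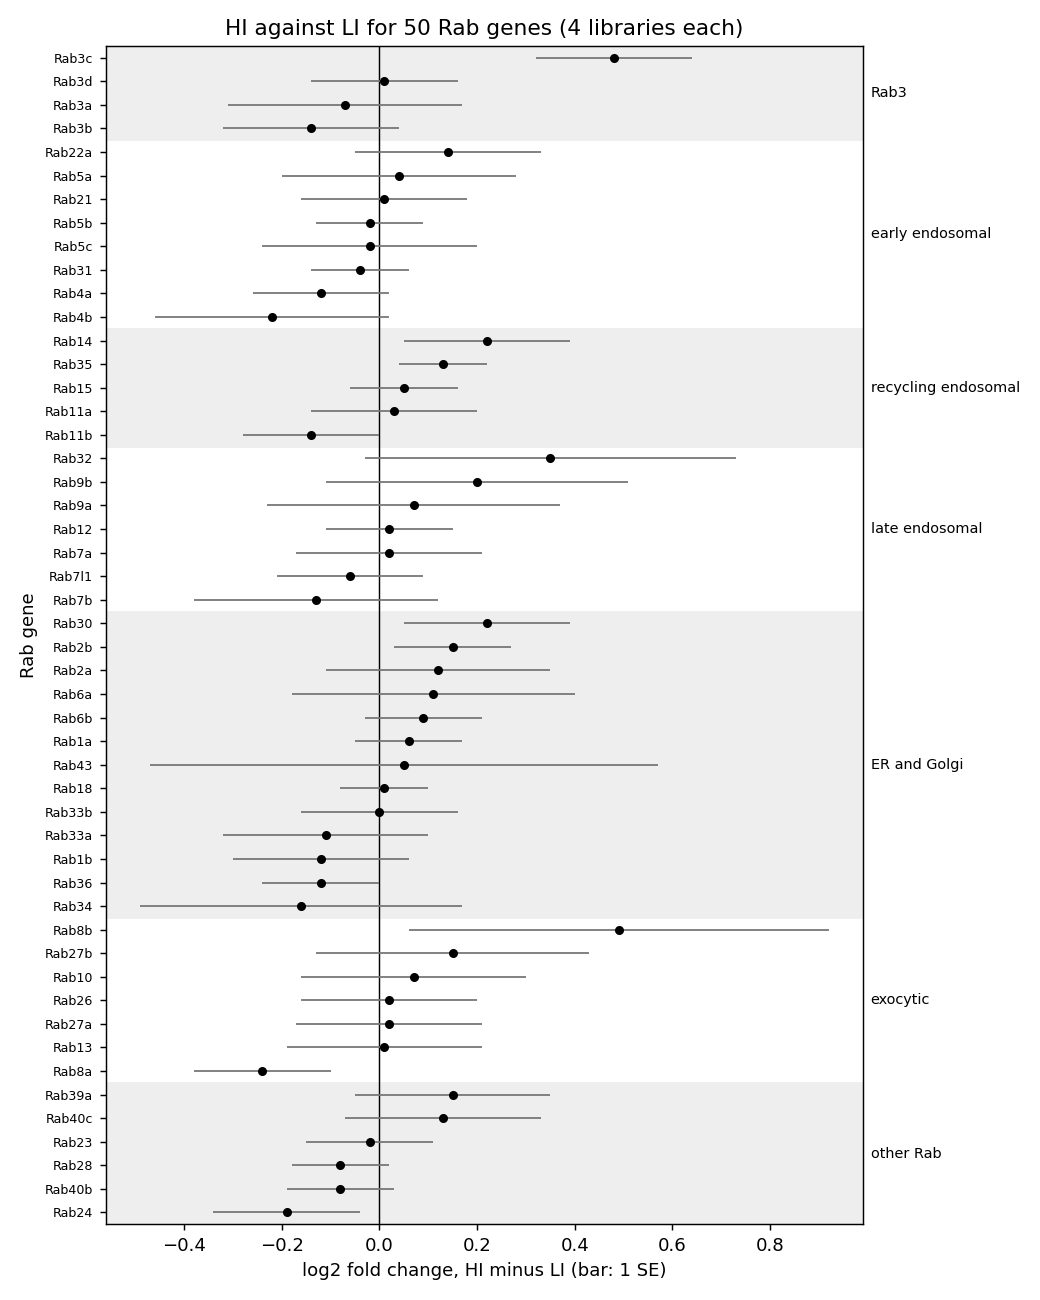
Log2 fold change, HI minus LI, of each Rab gene by class, with bars of 1 SE from edgeR (4 libraries each). Values run from -0.24 for Rab8a to 0.49 for Rab8b, and Rab3c at 0.48 with an SE of 0.16 lies farthest from 0 for its error.

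Within the Rab3 class the genes did not share a direction. Rab3a had 784, 752, 1203 and 1380.1 CPM in HI1 to HI4 and 993, 777, 1398 and 1159 CPM in LI1 to LI4. Both groups spanned nearly the same range, with replicates 1 and 2 of HI and replicate 2 of LI low. The HI mean was 1029.7 ± 311 CPM (SD, n = 4) and the LI mean 1082 ± 263 CPM (SD, n = 4), and the log2 fold change was -0.07 with an SE of 0.24. Its sign is not settled: without HI1, HI2 or LI3 it was 0.04, 0.06 and 0.08.

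Rab3c, a further Rab of synaptic vesicles, had the smallest p of the family. It had 60.8, 56.9, 75.8 and 70.9 CPM in HI1 to HI4 and 44.5, 42.5, 60.7 and 41.7 CPM in LI1 to LI4. All HI libraries lay above 3 of the LI libraries, and LI3 fell among the HI values. The HI mean was 66.1 ± 8.79 CPM (SD, n = 4) and the LI mean 47.4 ± 9 CPM (SD, n = 4). The log2 fold change was 0.48 with an SE of 0.16, and edgeR's unadjusted p was 0.0111 with an adjusted p of 1. Leaving out each library in turn gave 0.41 to 0.63, and leaving out both HI4 and LI3 gave 0.59. Replicates 1 and 2 alone gave 0.43 and replicates 3 and 4 alone 0.54.

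The same Rab3c values can be given relative to the other Rab3 genes, which is no separate evidence. Of the summed Rab3 level per kilobase, Rab3c made up 9.13%, 8.82%, 7.7% and 6.33% from HI1 to HI4, and from LI1 to LI4 it made up 5.55%, 6.51%, 5.44% and 4.46%. The HI mean was 8% ± 1.27 (SD, n = 4) and the LI mean 5.49% ± 0.838 (SD, n = 4), and HI4 lay just under LI2. In CPM, not divided by length, there were 5.14 to 7.75 of Rab3c for every 100 of Rab3a in HI and 3.59 to 5.47 in LI. Rab3a made up 85.3% ± 2.33 (SD, n = 4) of the HI sum and 87.5% ± 1.97 (SD, n = 4) of the LI sum.

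The remaining Rab3 genes overlapped between groups. Rab3b, the form also found in pituitary and in some inhibitory neurons, had 42.2, 50.4, 47.7 and 68.7 CPM in HI1 to HI4 and 45.8, 54.5, 61.8 and 68.1 CPM in LI1 to LI4. Its log2 fold change was -0.14 with an SE of 0.18. Rab3d, known best from secretory granules of gland cells, had 24.4, 22, 26 and 17.8 CPM in HI1 to HI4 and 23.5, 24.9, 19.1 and 22 CPM in LI1 to LI4. Its log2 fold change was 0.01 with an SE of 0.15, and HI4 and LI3 were its lowest libraries, whereas Rab3a was highest in them.

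**Figure D3:**
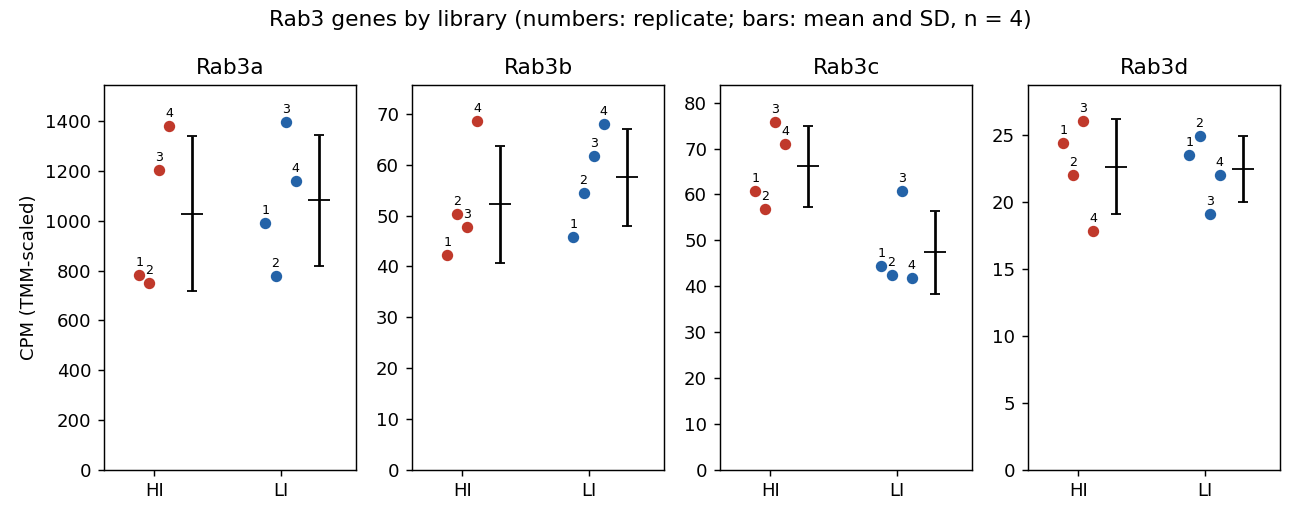
CPM of the 4 Rab3 genes in each library, with the replicate number above each point and the mean and SD (n = 4) beside each group. For Rab3c the HI points lie at 56.9 to 75.8 CPM and 3 of the LI points at 41.7 to 44.5 CPM, while the groups overlap throughout for Rab3a, Rab3b and Rab3d.

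The start regions of Rab3a and Rab3c are shown because these genes have the highest level and the smallest p of the family. Each is the 300-base window around the RefSeq gene start in the GRCr8 assembly, on the minus strand, printed 5' to 3'. Rab3a lies at chr16:18722224-18722523 and Rab3c at chr2:43575894-43576193. Capitals mark a GC box, GGGCGG or its reverse complement.
Rab3a: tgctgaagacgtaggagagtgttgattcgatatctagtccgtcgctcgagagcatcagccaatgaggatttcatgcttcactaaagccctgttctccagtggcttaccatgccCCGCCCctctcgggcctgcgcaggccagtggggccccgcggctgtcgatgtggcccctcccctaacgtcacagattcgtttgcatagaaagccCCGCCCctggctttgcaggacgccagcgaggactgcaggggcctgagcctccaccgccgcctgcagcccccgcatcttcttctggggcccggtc
Rab3c: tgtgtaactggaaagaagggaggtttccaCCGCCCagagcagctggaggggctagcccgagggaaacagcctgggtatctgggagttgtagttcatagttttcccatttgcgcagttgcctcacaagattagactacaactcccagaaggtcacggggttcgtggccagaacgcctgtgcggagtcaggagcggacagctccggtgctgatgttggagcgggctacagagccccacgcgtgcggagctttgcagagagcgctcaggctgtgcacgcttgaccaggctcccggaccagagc
The Rab3a window holds 2 GC boxes and 20 CpG sites at a GC content of 62.7%, and the Rab3c window holds 1 GC box and 16 CpG sites at 59.7%. Windows were found for 41 of the 50 members. A GC box on either strand was in 35 of these, or 85.4%, beside 62.4% of the windows of tested genes and 33.1% of all 33469 windows. TATAAA was in 0 of the 41 windows, beside 6.77% of those of tested genes and 14.2% of all. TGACGTCA was in 0, beside 3.25% and 1.83%, and CACGTG in 3, or 7.32%, beside 9.09% and 6.42%. Each motif was searched on both strands, none of them contains another, and a match describes the letters only.

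Among the 20 endosomal genes 12 had a positive and 8 a negative log2 fold change, and none passed the test. Rab35, which returns receptors from endosomes to the plasma membrane, was the only member whose groups did not overlap. It had 101, 98.9, 111 and 98.6 CPM in HI1 to HI4 and 95, 88.5, 94.8 and 95.3 CPM in LI1 to LI4. The gap between groups ran only from 95.3 to 98.6 CPM, less than the range within either. Its log2 fold change was 0.13 with an SE of 0.09, and edgeR's unadjusted p was 0.187 with an adjusted p of 1.

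Rab14, which acts between Golgi and endosomes, had 62.6, 61.7, 60.6 and 96.1 CPM in HI1 to HI4 and 54.4, 59.6, 71 and 55.9 CPM in LI1 to LI4. HI4 stood far above the other HI libraries, and LI3 was highest in LI. The log2 fold change was 0.22 with an SE of 0.17, and without a single library it ranged from 0.03 to 0.31. Rab11b, the brain-rich Rab11 of recycling endosomes, had 259.5, 228, 326 and 297 CPM in HI1 to HI4 and 297, 256, 334 and 342 CPM in LI1 to LI4. The groups overlapped, with a log2 fold change of -0.14 and an SE of 0.14. Its close relative Rab11a averaged 107 ± 19.6 CPM (SD, n = 4) in HI libraries and 105 ± 17.8 CPM (SD, n = 4) in LI libraries.

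The early endosomal genes had a median log2 fold change of -0.02, with 3 positive and 5 negative. They include the Rab5 genes, which drive fusion of incoming vesicles. Rab5a, Rab5b and Rab5c had log2 fold changes of 0.04, -0.02 and -0.02 with SEs of 0.24, 0.11 and 0.22. The rapid recycling genes Rab4a and Rab4b had -0.12 and -0.22 with SEs of 0.14 and 0.24. Rab22a and Rab21 had 0.14 and 0.01, and Rab31 had -0.04.

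The recycling genes had a median of 0.05, with 4 positive and 1 negative, and the late endosomal genes a median of 0.02, with 5 positive and 2 negative. Rab7a, which directs cargo to lysosomes, averaged 408 ± 113 CPM (SD, n = 4) in HI libraries and 403 ± 65 CPM (SD, n = 4) in LI libraries, a log2 fold change of 0.02 with an SE of 0.19. Rab9a and Rab9b, which return cargo from late endosomes to the Golgi, had 0.07 and 0.2 with SEs of 0.3 and 0.31. Rab7l1, now named Rab29 and linked to lysosomes and the Golgi, had -0.06, and Rab12, Rab7b and Rab32 had 0.02, -0.13 and 0.35. Rab32 rests on a mean of only 14.8 counts a library, and its SE was 0.38.

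Among the 20 secretory genes 15 had a positive and 5 a negative value, and none passed the test. Rab8a, which carries vesicles from the Golgi to the plasma membrane and cilium, had 45, 39.7, 42.6 and 50.8 CPM in HI1 to HI4 and 44.7, 48.1, 62.5 and 55.8 CPM in LI1 to LI4. HI4 lay above LI1 and LI2, so the groups overlapped. The log2 fold change was -0.24 with an SE of 0.14, and edgeR's unadjusted p was 0.109.

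Its relative Rab8b had the opposite sign and a far larger spread. It had 9.93, 8.27, 13.1 and 30.6 CPM in HI1 to HI4 and 6.77, 7.7, 16.5 and 13.1 CPM in LI1 to LI4. HI4 was more than any other library, and the log2 fold change of 0.49 had an SE of 0.43. Without a single library it ranged from -0.07 to 0.75, and without both HI4 and LI3 it was 0.19.

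Rab2b, a Golgi gene, had 29.6, 25, 29.9 and 30.3 CPM in HI1 to HI4 and 24.6, 24.6, 27.8 and 26.4 CPM in LI1 to LI4. Only HI2 lay within the LI range, and the log2 fold change was 0.15 with an SE of 0.12. Rab30, also on the Golgi, had 9, 7.27, 7.86 and 8.92 CPM in HI1 to HI4 and 6.25, 8.33, 7.4 and 6.49 CPM in LI1 to LI4. Its groups overlapped, with a log2 fold change of 0.22 and an SE of 0.17.

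Rab6b and Rab6a organise transport at the Golgi and back to the endoplasmic reticulum. Rab6b had 1393, 1329.7, 1595 and 1752 CPM in HI1 to HI4 and 1453, 1309.8, 1591 and 1359.6 CPM in LI1 to LI4. The groups overlapped, with a log2 fold change of 0.09 and an SE of 0.12. Rab6a had 730, 561, 887 and 1411 CPM in HI1 to HI4 and 761, 591, 1187 and 783 CPM in LI1 to LI4. HI4 and LI3 stood apart, and the log2 fold change of 0.11 had an SE of 0.29 and became -0.19 without HI4.

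The other endoplasmic reticulum and Golgi genes included both Rab1 genes, which start the secretory route. Rab1a and Rab1b had log2 fold changes of 0.06 and -0.12 with SEs of 0.11 and 0.18, and Rab2a had 0.12 with an SE of 0.23. Rab18, a gene of lipid droplets and endoplasmic reticulum, was the most even of the family, its highest library being 1.1 times its lowest. It averaged 121 ± 1.77 CPM (SD, n = 4) in HI libraries and 120.4 ± 4.82 CPM (SD, n = 4) in LI libraries. Rab33a, Rab33b, Rab34, Rab36 and Rab43 had -0.11, 0, -0.16, -0.12 and 0.05. Of the exocytic genes not yet named, Rab10, Rab13, Rab26, Rab27a and Rab27b had 0.07, 0.01, 0.02, 0.02 and 0.15. None of the values in this group exceeded its SE.

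The 6 remaining members had 2 positive and 4 negative values. Rab24, linked to autophagy, had 50.3, 60, 52.4 and 40.1 CPM in HI1 to HI4 and 66.3, 61.1, 53 and 50.3 CPM in LI1 to LI4, with a log2 fold change of -0.19 and an SE of 0.15. Rab39a is found on late endosomes and lysosomes but was listed among the other genes, so the endosomal counts and medians leave it out. It had 7.13, 6.12, 7.33 and 9.98 CPM in HI1 to HI4 and 6.97, 7.57, 5.62 and 7.33 CPM in LI1 to LI4. Its log2 fold change of 0.15 had an SE of 0.2 and became -0.08 without HI4 and LI3. Rab40b, whose family recruits a ubiquitin ligase, had 49.9, 45.8, 51.3 and 43.7 CPM in HI1 to HI4 and 51.1, 54.3, 49.8 and 46.4 CPM in LI1 to LI4. The groups overlapped in all 3 genes, and Rab40b had -0.08 with an SE of 0.11. Rab23, Rab28 and Rab40c had -0.02, -0.08 and 0.13.

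The larger variation among Rab genes ran between libraries of the same group. HI4 and LI3, the libraries with the least ribosomal RNA, were together the highest of the 8 in 15 of 50 members, or 30%, beside 19.9% of all tested genes. They were together the lowest in 9 members, or 18%, beside 22.3%. The sum of Rab counts was 0.903% of counts outside ribosomal RNA in HI4 and 0.876% in LI3, against 0.664% to 0.79% in the other 6. Rab6a had 1411 and 1187 CPM in HI4 and LI3 and 561 to 887 CPM elsewhere. Rab9b had 161 and 129 CPM against 63.5 to 83.4 CPM, and Rab5a 63.9 and 61.8 CPM against 33.6 to 43.8 CPM.

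Other members were lowest in these libraries. Rab4b had 26.2 and 37.5 CPM in HI4 and LI3 and 50.4 to 63.3 CPM elsewhere, and Rab1b had 97.4 and 136 CPM against 163 to 183 CPM. Their relatives did not clearly mirror them. Rab4a had 76.8 and 83 CPM and Rab1a 162 and 157 CPM, and HI3 exceeded HI4 in both, at 78.1 and 163 CPM. The Rab7 genes lay on opposite sides. Rab7a was highest in both libraries, with 575 and 499 CPM against 332 to 384 CPM. Rab7b was lowest, with 3.86 and 4.59 CPM against 6.16 to 8.08 CPM. The highest neuronal marker sums were in the same libraries. Astrocyte marker sums were also highest there, at 2506 and 2434 CPM, and endothelial sums lowest, at 71.9 and 72.7 CPM. The part of cell content in this pattern was not tested.

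**Figure D4:**
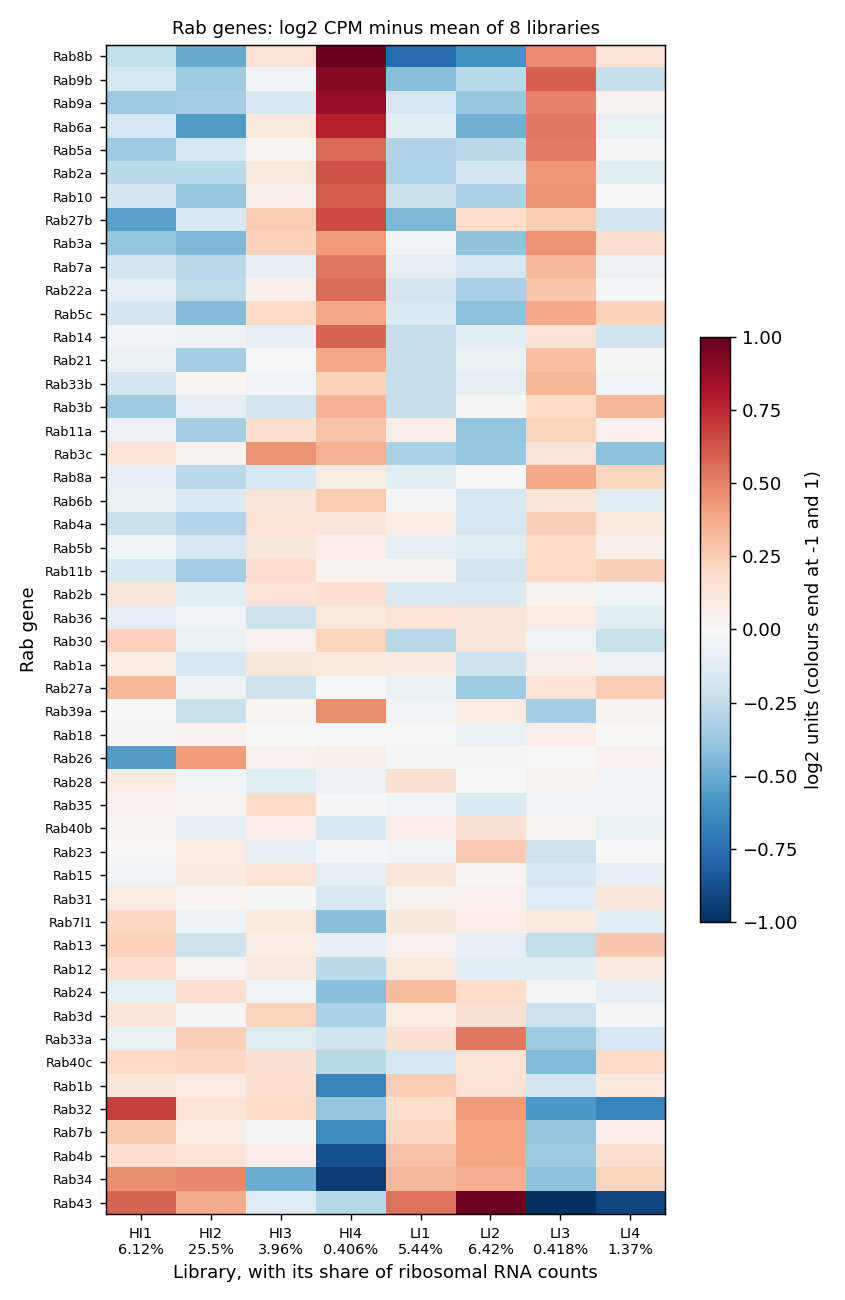
Log2 CPM of each Rab gene minus its mean over the 8 libraries (red above, blue below, colours ending at -1 and 1), with the share of ribosomal RNA counts under each library. Genes are ordered by their values in HI4 and LI3, the libraries with 0.406% and 0.418% ribosomal RNA, where 15 genes were highest and 9 lowest.

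Fitting the ribosomal RNA share changed what was called. With log2 of that share as a covariate, an alternative that was added once the data had been seen, 440 genes were called by edgeR, 3.78% of those tested, and 2 of 50 members. These were Rab3c, with a log2 fold change of 0.56, an SE of 0.12 and an adjusted p of 0.0653, and Rab8b, with 0.68, an SE of 0.14 and an adjusted p of 0.0653. The call did not hold across libraries: without HI4 or without LI3 that fit called 0 genes, and without HI2, HI3, LI1 or LI4 it called 20, 37, 7 and 2 genes and 0 members. Without HI1 it called 994 genes and 6 members, and without LI2 359 genes and 2 members. The same share without the logarithm gave 0 calls. In the other alternatives Rab3c had adjusted p from 0.46 to 1, except for Fisher's exact test.

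Fisher's exact test on summed counts, the test named in the series' design text, called 6596 genes, 56.7% of those tested, and 26 of 50 members, 5 of them higher in HI. It takes no account of the spread between libraries or of composition, and its median log2 fold change was -0.11 over all genes and -0.08 over Rab genes. Rab3c had 0.41 there with an adjusted p of 9.46e-17, and Rab35 had 0.04 with an adjusted p of 0.413.

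The length column could not show a difference for Rab genes. Each member had 1 transcript model, so its length was fixed, and it was the same in all 8 libraries in 50 of 50 members. Among all tested genes the length varied between libraries in 426, of which 0 passed limma at an adjusted p under 0.1 and 15 had an unadjusted p under 0.05. Member lengths ran from 638 to 6964 bases with a median of 1461.5, against 2198 over tested genes. Over the 50 members the rank correlation of log2 fold change with length was -0.104 across genes, which share the same libraries. The 25 longer members had a median log2 fold change of 0.01 and the 25 shorter 0.04. Across all genes the slope of log2 CPM on log2 length was 0.13 in HI4 and -0.08 in LI1, the extremes. Over the Rab genes alone the slope was 0 in HI4 and 0.02 in LI1, so they did not show the all-gene slope there. Correcting each library for its all-gene slope left the Rab median at 0.02 and moved Rab3c to 0.56. Whether that correction suits the Rab genes was not tested. The corrected medians were 0 for the longer and 0.11 for the shorter members, where uncorrected log2 CPM gave 0 and 0.02. Models under 700 bases were listed for Rab2a, Rab5a, Rab39a and Rab12, and their effect on the levels was not tested.

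The proteins that act on Rabs were followed through 4 lists, of which 78 of 114 genes were tested. None passed the adjusted threshold, and 3 of the 78 had an unadjusted p under 0.05, beside 4.16% of all tested genes. The median log2 fold change was 0.09, with 51 positive and 27 negative, a positive share of 65.4% beside 48.5% over all tested genes, and it became 0.03 after the length correction. These genes have a median length of 3768 bases.

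By role, the prenylation and extraction genes had a median of -0.02 over 8 genes and the exchange factors 0.04 over 17 of 30 listed. The GTPase-activating proteins had 0.1 over 22 of 33 and the effectors 0.1 over 31 of 43. Myo5a, the actin motor myosin Va that Rab proteins recruit to vesicles, had 402, 362, 458 and 598 CPM in HI1 to HI4 and 238, 313, 332 and 302 CPM in LI1 to LI4. All HI libraries were above all LI libraries, with means of 455 ± 103 and 296 ± 40.8 CPM (SD, n = 4 each). Myo5a was the only 1 of the 78 genes whose groups did not overlap, beside 3.46% of all tested genes. The log2 fold change was 0.62 with an SE of 0.17, and edgeR's unadjusted p was 0.00464 with an adjusted p of 1. DESeq2 gave it an adjusted p of 0.196, and edgeR with the log2 ribosomal RNA covariate 0.0485. That covariate fit was added after the data had been seen, and it called 0 genes without HI4 or without LI3.

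The other genes named from these lists had a larger unadjusted p in edgeR than Myo5a, from 0.0322 for Tbc1d5 to 0.653 for Rabggtb. Among effectors, Rab11fip2 and Mical3, which bind Rab11 and Rab8, had log2 fold changes of 0.39 and 0.31 with SEs of 0.18 and 0.17. Among GTPase-activating proteins, Tbc1d5, which acts on Rab7, had 0.3 with an SE of 0.12, Tbc1d24 had 0.23, and Rab3gap2, a subunit of the complex that switches off Rab3, had 0.17. Among exchange factors, Rab3ip, which activates Rab8, had 0.29 with an SE of 0.15, and Madd, which activates Rab3, had 0.14. Chml and Chm, the Rab escort proteins, had 0.56 and 0.13 with SEs of 0.25 and 0.27, and Rabggtb, a subunit of the enzyme that prenylates Rabs, had -0.05.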

How the data were processed

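RNA from homogenate was sequenced in 8 libraries, 4 HI and 4 LI, grouped by their labels. Per the file headers, the deposited tables of the authors give an expected count, a TPM, an FPKM and transcript length and effective length per gene. Expected counts are estimated reads that need not be whole: 7 members had a value that was not whole, so their reads may be shared with another gene. The submitters' processing notes name Bowtie2 2.1.0. The quantifier, genome build, annotation and use of strand were not given in the sources used here. The deposited TPM entered 1 alternative and the ranking of members, and the deposited FPKM was not used.

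Expected counts were rounded, scaled by TMM and filtered with filterByExpr (minimum count 10, minimum total 15). HI was compared with LI by edgeR 4.0.16 (quasi-likelihood test, R 4.3.3) over 11631 genes, with Benjamini-Hochberg adjustment and a threshold of 0.1, the alpha of the design text. SEs are the fold change over the square root of F. CPM is TMM-scaled, with a prior count of 2 for log2 CPM. Depth was 7354416 to 9476656 counts per library, and the member with the fewest counts, Rab32, averaged 14.8.

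Alternatives were other size factors, filters of 1 CPM in 4 libraries or none, DESeq2 1.42.0, limma 3.58.1 on voom values, on log2 TPM with a pseudocount of 1 and on length-corrected log2 CPM, Fisher's exact test, length offsets, a replicate block, ribosomal RNA left out or as a covariate, and each library left out. The log2 covariate and leaving out HI4 and LI3 together were added after seeing the data. The test was checked on simulated data. The members and lists were chosen with earlier results of these data known. Genes given with all 8 values are the Rab3 genes, the 3 with the smallest p in each other class, any whose groups do not overlap and the 3 highest by TPM, and for each pathway list the 3 with the smallest p are named. A gene that this rule takes is not reported here. Rab8b, Myo5a's values by library and the genes named for HI4 and LI3 were chosen after their values were seen. Sequences are from RefSeq, assembly GRCr8, matched by transcript for 49 members and by symbol for 1, and the files' own build may differ.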

Additional observations from a re-analysis of the deposited data

Results flagged for a closer look

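Of 38 groups of 4 values examined, 5 had a library whose gap to its nearest neighbour as a share of the group's range exceeded Dixon's critical value for 4 values, and chance gives this in about 1 in 20 groups. Rab3c in LI3 was 60.7 CPM while the other LI libraries had 41.7 to 44.5 CPM. Rab35 in LI2 was 88.5 CPM while the other LI libraries had 94.8 to 95.3 CPM. Rab14 in HI4 was 96.1 CPM while the other HI libraries had 60.6 to 62.6 CPM. Rab2b in HI2 was 25 CPM while the other HI libraries had 29.6 to 30.3 CPM. The secretory share of the Rab level in HI3 was 35.9% while the other HI libraries had 37.8% to 38%.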

How the results depend on the processing

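The count of genes past the threshold was 0 in the main test and 30 with DESeq2, 6596 with Fisher's exact test and 440 with the log2 ribosomal RNA covariate. The last of these called 2 of 50 Rab genes and 5 of 78 pathway genes, beside 3.78% of all genes. Fisher's test called 26 and 41, beside 56.7% of all genes, where the main test called 0 of each. The 5 pathway genes called with the log2 covariate were Rabac1, Myo5a, Rab11fip2, Bicd1 and Erc1. In that fit Rabac1 was lower in HI, with a log2 fold change of -0.49, and the others were higher. The same fit called 0 genes without HI4 or without LI3. Fisher's test, which does not scale for composition, moved the Rab median to -0.08 and the secretory median to -0.06, and the linear ribosomal RNA covariate moved the endosomal median to 0.14. The cause was not tested. Among the 15 Rab genes carried through every alternative, those with a changed sign were Rab3a, Rab3d, Rab39a, Rab6b and Rab6a. Rab3a became 0.11 with the linear and 0.07 with the log2 covariate and 0.02 in replicates 3 and 4 alone, and ranged from -0.25 to 0.08 without 1 library. Rab3d became 0.00 on log2 TPM, -0.07 with Fisher's test, -0.01 with the linear and -0.05 with the log2 covariate and -0.06 in replicates 1 and 2 alone, and ranged from -0.06 to 0.11 without 1 library. Rab39a became -0.08 without HI4 and LI3 and -0.13 in replicates 1 and 2 alone. Rab6b became -0.01 with Fisher's test and -0.02 in replicates 1 and 2 alone. Rab6a became -0.07 in replicates 1 and 2 alone and ranged from -0.19 to 0.34 without 1 library. Rab3c kept its sign in every alternative.

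Libraries of the same number in HI and LI correlated at 0.22, 0.54, -0.05 and 0.06, and HI4 correlated best with LI3 at 0.78. HI4 and LI3 had the least ribosomal RNA, so these correlations cannot decide whether the numbers pair the samples. With the replicate number as a block, edgeR called 0 genes and 0 Rab genes, and Rab3c had 0.49.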
